A study of Mus musculus with 8 samples.

Results

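The myeloid regulators and granule genes examined here are 10 genes chosen by symbol: the transcription factor genes Cebpa, Cebpe and Spi1, the granule enzyme genes Mpo, Elane, Prtn3 and Ctsg, the membrane protein gene Ms4a3, the lysozyme gene Lyz2 and Plac8. The array annotation assigned 1 probe set to each of 9 of them and none to Cebpe, which was not analysed here. These 9 probe sets stand among 45037 tested probe sets, which represent 18193 genes. Expression was measured on 8 Affymetrix arrays, with 1 mouse per array. The RNA came from haematopoietic stem cells of C57/B6 fetal liver that lacked lineage markers and carried Sca-1 and Kit at sorting. The ADAR1 null group (ADAR1 -/-) had 3 arrays, the heterozygous group (ADAR1 +/-) 3 arrays and the wild-type group 2 arrays. ADAR1 edits adenosine to inosine in double-stranded RNA. The labels state neither the age of the embryos nor the form of the null allele, and they name no Cre line and no antibodies for the lineage sort.

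Granulocytes and monocytes arise from stem cells through progenitors in which PU.1, the protein of Spi1, and C/EBP alpha switch on the myeloid programme, with C/EBP epsilon acting later in granulocyte maturation. The primary granules that form at the promyelocyte stage hold myeloperoxidase (Mpo) and the serine proteases neutrophil elastase (Elane), proteinase 3 (Prtn3) and cathepsin G (Ctsg). Ms4a3 marks granulocyte and monocyte progenitors, Lyz2 encodes the lysozyme of macrophages and granulocytes, and Plac8 encodes a small cysteine-rich protein found in many blood progenitors. Most of these genes are transcribed only weakly in stem cells and strongly in the committed progenitors that follow.

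The sequences upstream of the start sites are shown because Spi1, one of the 3 genes that changed, encodes a factor that binds the ETS-type word AGGAAGT, and granule genes are textbook targets of it. RefSeq (GRCm38.p6) gave a start-site window for 8 of the 10 genes, all but Cebpe and Spi1. The word, searched on both strands over the 250 bases before the first listed start, was present for 5 of the 8 genes (Mpo, Elane, Prtn3, Ctsg and Lyz2) and in 7.69% of all 32851 windows of that length. The words were chosen with the sequences and the expression results in view, and a match is a description of letters, not a bound site. The C/EBP-type word TTNNGCAA and an interferon response-type word (GAAA, any 2 bases and again GAAA), on both strands, were in 0 of the 8 first windows, against 9.56% and 2.98% of all windows. At a further Plac8 start the C/EBP-type word lay 12 bases before it. No match of these 2 words overlapped an AGGAAGT match in the windows of these genes, and the absence of a word says only that these letters are not in this window. Capitals mark AGGAAGT or its reverse complement. The 4 granule enzyme genes are shown as 60 bases around the word, and Lyz2 and Plac8, which changed, as the whole 250 bases, each 5′ to 3′ on the strand of the gene.
Mpo, chr11:87793535-87793594, plus strand: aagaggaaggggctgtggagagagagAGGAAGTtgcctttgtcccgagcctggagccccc
Elane, chr10:79886202-79886261, plus strand: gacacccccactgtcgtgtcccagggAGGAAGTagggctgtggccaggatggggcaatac
Prtn3, chr10:79879547-79879606, plus strand: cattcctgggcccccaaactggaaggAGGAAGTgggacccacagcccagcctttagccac
Ctsg, chr14:56102747-56102806, minus strand: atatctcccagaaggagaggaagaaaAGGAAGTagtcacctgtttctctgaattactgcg
Lyz2, chr10:117282273-117282522, minus strand: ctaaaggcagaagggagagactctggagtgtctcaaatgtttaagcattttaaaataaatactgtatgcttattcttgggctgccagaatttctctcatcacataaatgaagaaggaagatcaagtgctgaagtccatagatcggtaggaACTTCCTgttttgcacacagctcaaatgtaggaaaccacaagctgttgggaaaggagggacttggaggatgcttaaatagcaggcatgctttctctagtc
Plac8, chr5:100572206-100572455, minus strand: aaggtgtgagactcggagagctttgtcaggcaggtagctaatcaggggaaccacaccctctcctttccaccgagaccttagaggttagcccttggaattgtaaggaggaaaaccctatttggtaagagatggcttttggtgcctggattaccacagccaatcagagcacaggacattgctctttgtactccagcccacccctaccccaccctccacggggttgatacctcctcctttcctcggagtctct

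All levels below are log2 of the deposited intensity, and a level is set only against the same probe set on other arrays. An array's background is the highest of 27 probe sets for Bacillus transcripts, which lay between 2.63 and 3.22 log2 units. The share of probe sets above it was 40.0% to 46.4% on the null arrays and 45.6% to 61.2% on the 5 control arrays (heterozygous and wild type together). The brightest Adar probe set read 5.90, 7.17 and 7.46 on the null arrays, against 3.71, 4.00 and 3.31 on the heterozygous and 2.94 and 4.14 on the wild-type arrays. Another Adar probe set, above background on 5 arrays, differed by 0.24 ± 0.40 between null and all controls (limma, adjusted p = 0.835). A further one, above background on 1 array, differed by -0.16 ± 0.20 (adjusted p = 0.778). Because the labels do not say which exons were deleted, Adar levels check no genotype label. Kit, on which the cells were sorted, read 3.22 to 3.73 on null arrays and 3.55 to 4.55 on control arrays, above background on all 8, and Ly6a, which encodes Sca-1, has no probe set of its own in the annotation. With 3, 3 and 2 arrays, the number of mice limits the precision of every value.

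The study asked how expression in stem cells is altered in the ADAR1 mouse model. Among the myeloid genes, Plac8 and Spi1 were higher and Lyz2 was lower in null cells than in the 5 controls. The other 6 genes with a probe set did not pass the test. Thus 3 of 9 passed by limma (adjusted p under 0.05), 2 higher and 1 lower, against 0.582% of all probe sets tested in this comparison (0.329% higher and 0.253% lower). The count was also 3 of 9 at an unadjusted p under 0.05, which 11.5% of all probe sets had. In Plac8, Spi1 and Lyz2 every null array lay beyond every control array, which held for 8.19% of all probe sets (3.89% higher and 4.30% lower). The median difference of the 9 genes was -0.05 log2 units, and that of all 18193 genes 0.03. In sorted cells a smaller share of a cell type and less RNA per cell cannot be told apart.

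**Figure D1:**
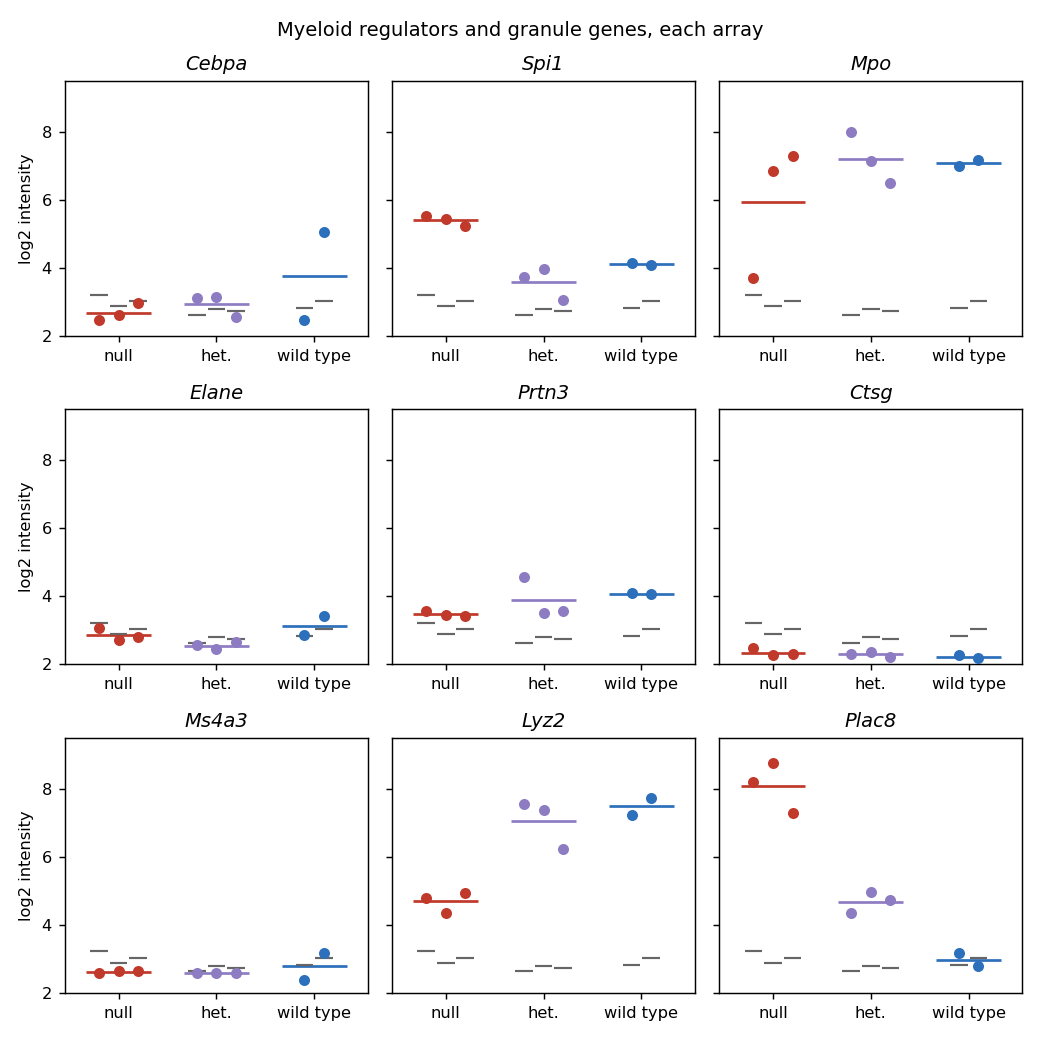
Log2 intensity of the 9 measured genes on each array (points), with group means (coloured bars) and the background of each array (short grey bars), for null, heterozygous and wild-type cells. Plac8 and Spi1 sit higher and Lyz2 lower on the 3 null arrays than on any control array, Mpo is low on null array 1, Cebpa is high on wild-type array 2, and Ctsg stays at or below background throughout.

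Spi1, which encodes the master regulator PU.1, read 5.53, 5.43 and 5.24 on the null arrays. It read 3.73, 3.97 and 3.06 on the heterozygous arrays and 4.14 and 4.10 on the wild-type arrays. The 3 null arrays lay close together, and all were above the highest control array. The difference between null and all controls was 1.60 ± 0.25 log2 units (SE, n = 3 and 5), a 3.03-fold higher level with a 95% confidence interval of 2.01 to 4.56 (limma, adjusted p = 0.0474). This call is close to the threshold: over the alternatives tried the adjusted p ran from 0.0200 to 0.146, and of the 8 fits with 1 array left out, the one without heterozygous array 3 passed and the other 7 did not. Against heterozygous cells Spi1 was 3.52-fold higher (1.81 ± 0.24, adjusted p = 0.0384), and this call was lost on leaving out any 1 of the 8 arrays (adjusted p from 0.0552 to 0.150). Against wild type the difference of 1.28 ± 0.27 (adjusted p = 0.218) did not pass, with an interval of 0.63 to 1.92. Heterozygous arrays lay below both wild-type arrays, and that difference of -0.54 ± 0.27 did not pass (adjusted p = 0.891); it was -0.27 without heterozygous array 3 and -0.16 with a pseudocount of 32.

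Cebpa, whose protein C/EBP alpha is required for granulocyte commitment, was at or below background on all 3 null arrays (2.46, 2.61 and 2.97). The heterozygous arrays read 3.13, 3.14 and 2.56, the first 2 above their background, and the wild-type arrays 2.48 and 5.07. A single array, wild-type 2, therefore carries the high reading, and the groups overlap. Null cells had a mean of 2.68 ± 0.26 (SD, n = 3) and wild-type cells 3.78 ± 1.83 (SD, n = 2). The fitted difference of -1.10 ± 0.69 did not pass (limma, adjusted p = 0.779). Without wild-type array 2 it was 0.19. The same wild-type array held the highest summed intensity of the 15 macrophage markers described below, 854 linear units against 121 to 454 on the other 7 arrays, and the part of such cells in the Cebpa reading was not tested.

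Mpo, which makes hypochlorous acid in the phagosome, read 3.71, 6.84 and 7.29 on the null arrays. It read 7.99, 7.14 and 6.50 on the heterozygous arrays and 7.00 and 7.17 on the wild-type arrays. Null arrays 2 and 3 fall inside the control range, and null array 1 lies below every control array. The difference from all controls was -1.22 ± 0.78, which did not pass (limma, adjusted p = 0.578), with an interval of -3.02 to 0.59. Without null array 1 it was -0.10. Null array 1 also had the highest background and the smallest share of probe sets above it, and whether these account for its Mpo level was not tested. Heterozygous and wild-type cells differed in Mpo by 0.12 ± 1.04 (adjusted p = 0.993), an interval of -2.36 to 2.61 that leaves differences of several-fold undecided.

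The 3 serine protease genes were dim. Prtn3 was above background on all 8 arrays, with 3.57, 3.44 and 3.42 in null, 4.56, 3.51 and 3.58 in heterozygous and 4.11 and 4.06 in wild-type cells. The null arrays were below both wild-type arrays and overlapped the heterozygous ones. The difference of -0.49 ± 0.24 from all controls did not pass (limma, adjusted p = 0.495; interval -1.05 to 0.08), nor did that of -0.60 ± 0.32 from wild type (adjusted p = 0.738).

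Elane, the neighbour of Prtn3 on chromosome 10, was above background on the wild-type arrays alone. It read 3.07, 2.73 and 2.80 in null, 2.56, 2.46 and 2.65 in heterozygous and 2.87 and 3.42 in wild-type cells. All heterozygous arrays were below both wild-type arrays, with a fitted difference of -0.59 ± 0.21 (limma, adjusted p = 0.891, unadjusted p = 0.0255), which was -0.31 without wild-type array 2. Null and wild-type arrays overlapped, with a difference of -0.28 ± 0.21 (adjusted p = 0.812) that was -0.00 without wild-type array 2. Ctsg was at or below background on all 8 arrays (2.27 to 2.48 in null cells and 2.18 to 2.38 in controls), so no difference could be measured. Ms4a3 was above background on wild-type array 2 alone (3.18) and read 2.58 to 2.64 in null cells and 2.38 to 2.60 on the other 4 control arrays. A reading at background is no evidence that a transcript is absent.

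Lyz2, which digests bacterial cell walls, read 4.79, 4.36 and 4.93 on the null arrays. It read 7.57, 7.37 and 6.24 on the heterozygous arrays and 7.23 and 7.74 on the wild-type arrays. Every null array was above background and below every control array. Lyz2 fell in null cells by 2.54 ± 0.34 log2 units against all controls (SE, n = 3 and 5), which is 5.80-fold, with a 95% confidence interval of -3.32 to -1.75 on the log2 scale (limma, adjusted p = 0.0207). The differences of -2.79 ± 0.42 from wild type (adjusted p = 0.0779) and -2.37 ± 0.38 from heterozygous (adjusted p = 0.0749) did not pass. Leaving out wild-type array 1, heterozygous array 1 or 2, or null array 1 ended the call against all controls (adjusted p up to 0.0733), with differences from -2.79 to -2.37 over the 8 arrays left out in turn. The call was also lost with quantile normalization (-2.24, adjusted p = 0.0722), a pseudocount of 32 (-1.66, 0.0724), an eBayes trend (0.0514) and array weights (0.117).

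Lyz1, the adjacent paralogue, has a closely related sequence, so signal of a lysozyme probe set may come from either gene. The probe sequences were not examined. Of the Lyz1 probe sets, 2 carry the suffix for probes that may also match other sequences. The first read 3.47, 7.02 and 2.65 in null, 6.94, 6.57 and 5.50 in heterozygous and 6.14 and 7.44 in wild-type cells. Null array 2 was thus inside the control range on this probe set while it had the lowest Lyz2 reading of all arrays. The second such probe set had the same order of null arrays (4.08, 5.94 and 3.24). The third, which lacks that suffix, was at background on all 8, so which lysozyme gene gave the signal on null array 2 was not measured. None of the 3 Lyz1 probe sets passed against all controls (limma, differences -2.13 ± 0.95, -0.91 ± 0.63 and 0.07 ± 0.14, adjusted p = 0.447, 0.600 and 0.863).

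Macrophages also express Lyz2, and some of their markers were low on the same arrays. The summed intensity of 15 macrophage markers was 121 to 134 linear units on the null arrays, against 311 to 454 on the heterozygous and 221 and 854 on the wild-type arrays, with no overlap. Such a sum is carried by its brightest members. Of the 15, 5 were below every control array in null cells (C1qb, C1qc, Slc40a1, Mrc1 and Csf1r) and 1, Cd5l, was above. These counts stand beside 4.30% and 3.89% of all probe sets. All others of the 15 overlapped the control arrays, among them C1qa, Marco, Timd4 and Hmox1. Vsig4, Cd5l and Adgre1 were at or below background on all 8 arrays. The iron exporter gene Slc40a1 was the 1 of 15 past the threshold (-1.74 ± 0.22, limma, adjusted p = 0.0168), with an adjusted p of 0.0591 without heterozygous array 3, 0.0531 without null array 1, 0.0679 with quantile normalization and 0.0901 with an eBayes trend. The complement gene C1qb read 3.13, 2.96 and 3.18 in null and 5.64 to 8.76 in control cells and did not pass (-3.69 ± 0.65, adjusted p = 0.0665). It passed in 3 of 14 alternatives, and with the mean of its probe sets it differed by -2.58 (limma, adjusted p = 0.183). C1qc was at or below background on all 3 null arrays, and the mean of the controls was at least 5.92-fold brighter (adjusted p = 0.181). The summed intensity of 10 hepatocyte markers was 78 to 98 in null and 230 to 1128 in control cells. Of the 10, 4 were below every control array in null cells (Alb, Afp, Apoa2 and Ttr) and 0 above, beside 4.30% and 3.89% of all probe sets. All others, among them Apoa1, Apob, Fgb and Ahsg, overlapped the control arrays. Afp, the brightest of the 10 on the heterozygous arrays (8.32 to 9.28), was past the threshold (-5.11 ± 0.79, limma, adjusted p = 0.0403). The Afp call was lost on leaving out wild-type array 2, any heterozygous array, or null array 2 or 3 (adjusted p up to 0.122), with quantile normalization (0.0673), with array weights (0.0817) and with a pseudocount of 32 (-3.05, 0.142). With the mean of its probe sets Afp differed by -2.13 (adjusted p = 0.0186). The part of either cell type in the Lyz2 difference was not tested. Mature neutrophil markers, 10 measured, summed to 65 to 79 in null and 60 to 91 in control cells, and 0 passed (limma, with 2 at an unadjusted p under 0.05). Lymphoid markers (97 to 128 against 88 to 124) gave 0 of 13 calls, and mast cell and basophil markers (75 to 89 against 67 to 75) 0 of 11. Each of these lists had 1 member at an unadjusted p under 0.05. Against all controls, 0.582% of all probe sets passed and 11.5% had an unadjusted p under 0.05 (limma), beside every marker list here. Against wild type, 0.326% passed. Stem and progenitor markers summed to 397 to 1137 in null and 648 to 822 in control cells, with 0 of 12 past the threshold. The 1 at an unadjusted p under 0.05 was Kit, the sort marker (-0.61 ± 0.26, limma, adjusted p = 0.428, unadjusted p = 0.0466). Erythroid markers summed to 1544 to 3819 in null and 2814 to 5796 in control cells and megakaryocyte markers to 11554 to 12792 and 10666 to 12347, with 0 of 13 and 0 of 8 past the threshold against all controls and 3 and 1 at an unadjusted p under 0.05. The erythroid regulator gene Gata1 passed against wild type (1.24 ± 0.15, adjusted p = 0.0355), a call that was lost on leaving out any 1 array (adjusted p from 0.0523 to 0.107), with the filter (0.0769), an eBayes trend (0.595), array weights (0.0986) and the arrays of the 2 groups alone (0.293).

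**Figure D2:**
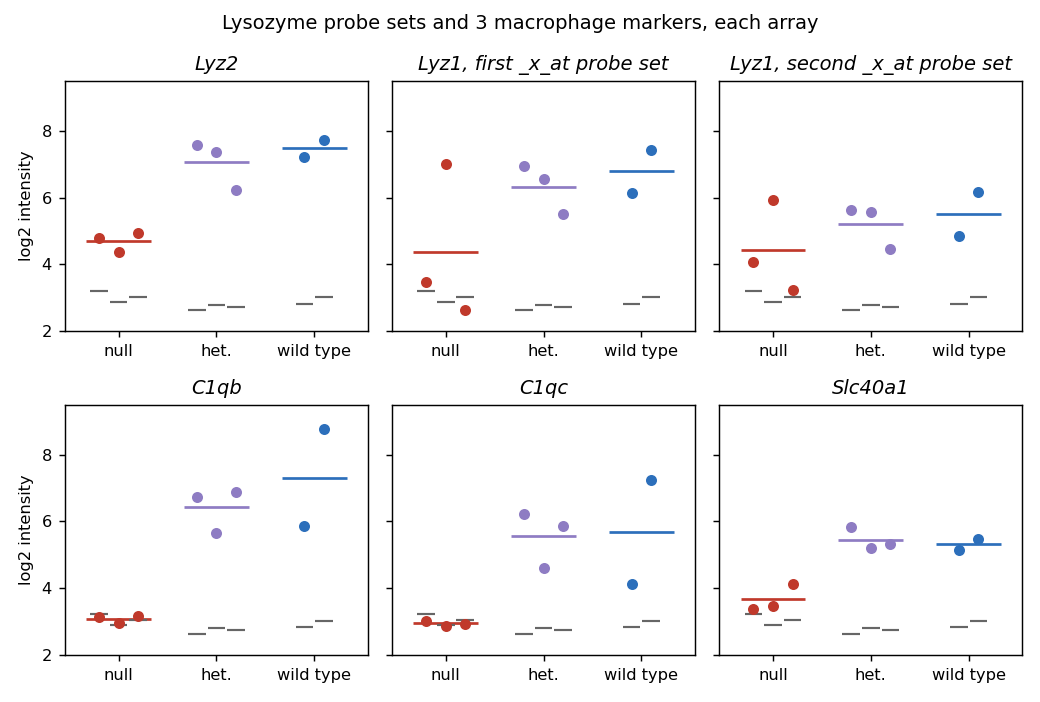
Log2 intensity on each array of Lyz2, of the 2 Lyz1 probe sets above background and of the macrophage markers C1qb, C1qc and Slc40a1 (points; coloured bars, group means; grey bars, array background). Null arrays are low throughout, except null array 2 for both Lyz1 probe sets (7.02 and 5.94).

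Plac8 had the largest difference of the 9 genes. It read 8.21, 8.76 and 7.28 on the null arrays, 4.35, 4.96 and 4.74 on the heterozygous arrays and 3.18 and 2.78 on the wild-type arrays, the last of these below its background, so that 1 of 2 wild-type arrays measured it. The 3 groups do not overlap, and the heterozygous level lies between the others. Against all controls Plac8 was 17.0-fold higher in null cells (4.08 ± 0.58 log2 units, SE, n = 3 and 5; 95% confidence interval of the fold 6.65 to 43.3; limma, adjusted p = 0.0289). Against wild type it was 34.4-fold higher (5.11 ± 0.43, adjusted p = 0.00970) and the call remained on leaving out each array in turn (adjusted p up to 0.0472). With wild type this close to background the size of that fold is uncertain, and with a pseudocount of 32 the difference was 2.94 and did not pass (adjusted p = 0.0779). Plac8 was the 1 of 9 genes past the threshold in that comparison, in which 0.326% of all probe sets passed (0.220% higher and 0.107% lower) and 3 of the 9 genes, against 7.63% of probe sets, had an unadjusted p under 0.05. Null and wild-type arrays did not overlap for 4 of the 9, Plac8 and Spi1 (higher) and Lyz2 and Prtn3 (lower), against 19.6% of probe sets (9.20% higher and 10.4% lower). Against heterozygous cells it was 10.6-fold higher (3.40 ± 0.38, adjusted p = 0.0223). Plac8 and Spi1 were the 2 of 9 that passed there, against 0.502% of all probe sets (0.262% higher and 0.240% lower), and 3 of 9 had an unadjusted p under 0.05, against 11.3%. Null and heterozygous arrays did not overlap for 4 of the 9, Plac8, Spi1 and Elane (higher, Elane at background in both groups) and Lyz2 (lower), against 21.5% of probe sets (12.2% higher and 9.28% lower). The Plac8 call against all controls ended without wild-type array 1, heterozygous array 1 or 3, or null array 1 (adjusted p up to 0.0834), and that against heterozygous without any 1 heterozygous array or null array 1 (up to 0.116).

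**Figure D3:**
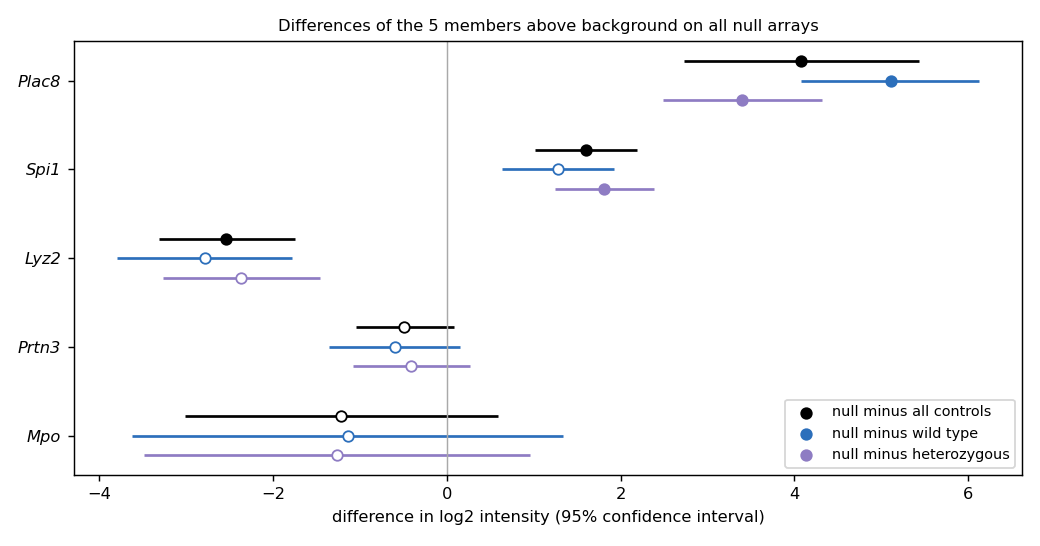
Differences in log2 intensity with 95% confidence intervals for the 5 genes above background on every null array, in null minus all controls (black), minus wild type (blue) and minus heterozygous (purple). Filled points passed an adjusted p of 0.05: Plac8 in all 3 comparisons, Spi1 in 2 and Lyz2 in 1; the intervals of Prtn3 and Mpo include 0.

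Heterozygous cells were also compared with wild-type cells. None of the 9 genes passed by limma, and 2, Plac8 and Elane, had an unadjusted p under 0.05, where 0.00222% of all probe sets passed and 5.37% had such a p. Plac8 was 1.70 ± 0.43 log2 units higher in heterozygous cells (adjusted p = 0.816, unadjusted p = 0.00581), and 0.53 higher with the pseudocount of 32; wild type was near background. Heterozygous and wild-type arrays did not overlap for 3 of the 9 genes, Plac8 (higher), Spi1 and Elane (lower), against 29.2% of all probe sets (11.4% higher and 17.8% lower). Lyz2 differed by -0.43 ± 0.42 (adjusted p = 0.925), within the spread of the heterozygous arrays.

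The wider myeloid programme was examined through 50 further genes, of which 48 had a probe set. Against all controls 1 of the 48 passed, beside 0.582% of all probe sets. This was Egr1, an immediate early transcription factor that PU.1 induces on the macrophage path. It read 7.47, 7.63 and 6.11 in null, 3.42, 4.77 and 2.97 in heterozygous and 3.55 and 3.74 in wild-type cells. Its level in null cells was 10.4-fold that in all controls (3.38 ± 0.47, limma, adjusted p = 0.0265). The call was lost without either wild-type array, heterozygous array 1 or 3, or null array 1 (adjusted p up to 0.0884), with array weights (0.108) and with a pseudocount of 32 (1.89, 0.0584). Against wild type (3.43 ± 0.64, adjusted p = 0.150) and heterozygous (3.35 ± 0.57, adjusted p = 0.0900) it did not pass. Egr2, on the same list, was at or below background on all 8 arrays. Nab2, also listed, differed by 0.19 ± 0.12 from all controls (limma, adjusted p = 0.560). Whether Spi1 has a part in the Egr1 level was not tested. An unadjusted p under 0.05 against all controls was found for 14 of the 48, 6 on the higher and 8 on the lower side, beside 11.5% of all probe sets. None of the 48 passed against wild type by limma, beside 0.326% of all probe sets. An unadjusted p under 0.05 was found there for 3 on the higher and 5 on the lower side, beside 7.63%. None passed against heterozygous either, beside 0.502% of all probe sets. Such an unadjusted p was found there for 4 on the higher and 7 on the lower side, beside 11.3%. The median of the list against all controls was 0.07, beside 0.03 for all genes.

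Among the 48, null arrays lay apart from all control arrays for 6 genes, 2 above and 4 below, beside 3.89% of all probe sets above and 4.30% below. They were Egr1 and Hp above, Hp at or below background on all 8 arrays, and Cbfb, Tyrobp, Calr and Cst7 below. Those other than Egr1 were named after their values were seen, and the list itself was drawn up with earlier results of these data known. Tyrobp, an adaptor of myeloid receptors that macrophages express, read 4.36, 4.31 and 2.84 in null and 5.61 to 6.90 in control cells (-2.31 ± 0.42, limma, adjusted p = 0.0735). Cst7, an inhibitor of cathepsins, read 2.97, 2.72 and 3.19 in null and 3.79 to 4.96 in control cells (-1.30 ± 0.30, adjusted p = 0.147). Cbfb, the partner subunit of RUNX proteins, differed by -0.96 ± 0.25 (adjusted p = 0.206), and Calr, a chaperone of myeloperoxidase, by -0.96 ± 0.31 (adjusted p = 0.314), and by -0.52 without null array 1.

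**Figure D4:**
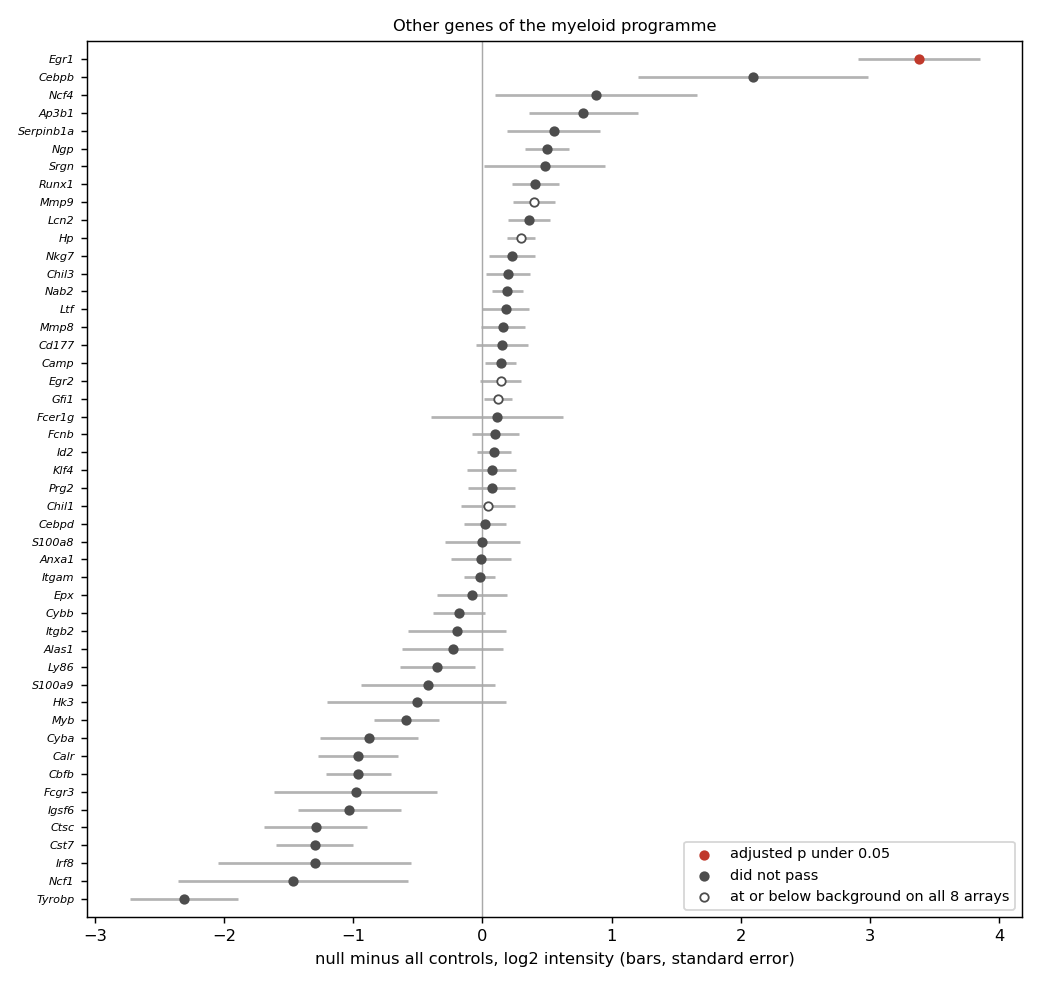
Difference in log2 intensity between null and all control arrays (points, with standard errors) for 48 other genes of the myeloid programme, sorted by size. Egr1 (3.38) alone passed the threshold, Tyrobp (-2.31) had the lowest difference, and 5 genes (open points) were at or below background on all 8 arrays.

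For each gene above background on at least 2 arrays, the 3 other genes with the most similar profile over the 8 arrays were listed by Pearson's correlation, as a description in which the arrays share groups. Plac8 was most like Herc6 (r = 0.980), 2410006H16Rik (0.979) and Vps37b (0.974). Spi1 was most like Xaf1 (0.960), Kcnk12 (0.958) and Ifi35 (0.950). Herc6, Xaf1 and Ifi35 are known interferon-induced genes. Their group means were 8.63, 8.39 and 10.59 in null, 4.28, 2.76 and 7.76 in heterozygous and 3.13, 3.55 and 8.03 in wild-type cells. Those of 2410006H16Rik, Vps37b and Kcnk12 were 10.52, 8.75 and 3.02 in null, 8.35, 5.70 and 2.53 in heterozygous and 7.42, 5.19 and 2.59 in wild-type cells. Lyz2 was most like Ccng1 (0.980), Eya3 (0.977) and Mgat2 (0.972), all lower in mean in null than in either control group. Mpo was most like Tbck, Srrm1 and Aimp1 (0.974 to 0.981). This likeness leans on null array 1, where Mpo read 3.71 against 6.50 to 7.99 elsewhere. By rank (Spearman) the correlations with Mpo were 0.905, 0.619 and 0.952. Prtn3 was most like Nfam1, Castor2 and Evi5 (0.925 to 0.958). Cebpa was most like Ift43, Gm5547 and Ntan1 (0.968 to 0.972), a likeness that leans on its high reading on wild-type array 2 (5.07). Elane, above background on the wild-type arrays alone, was most like Zfp438, Krt4 and Gm10033 (0.973 to 0.982). These 3 had group means of 2.54 to 3.40, so the Elane likeness rests on readings near background. Ctsg and Ms4a3 were too dim to be listed.

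The genome places Prtn3 beside Elane, and Lyz2 beside Lyz1. Of the 15 other genes that flank the 10 loci and have a probe set, 0 passed the threshold in any of the 4 comparisons by limma. The flanking genes of Plac8 differed between null and all controls by -0.76 (Cops4, adjusted p = 0.174) and 0.94 (Coq2, adjusted p = 0.405), and those of Spi1 by -0.59 (Slc39a13, adjusted p = 0.408) and 0.26 (Mybpc3, adjusted p = 0.555).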

How the data were processed

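The authors deposited 1 linear intensity for each probe set and array, made with RMA per the submitters' processing notes, which name no software or version. RNA was labelled with biotin by a Nugen kit, per the labels. Values were put on the log2 scale without further normalization, and 0 per-sample columns were left unused. Of 45101 probe sets 64 controls were left out. The platform annotation assigns probe sets to genes, with symbols updated by gene number; a gene with several is represented by its brightest probe set. Models were fitted over all tested probe sets with limma 3.58.1 on R 4.3.3 (lmFit, eBayes): a 3-group model (5 residual degrees of freedom) for the 3 differences between genotypes, and a model of 2 groups (6) for null minus all controls. The comparisons with null share the null arrays. Tests were two-sided, with Benjamini-Hochberg adjustment over all probe sets and a threshold of 0.05. Where a group was at or below background on every array, a least fold was computed against background. The method was tested on simulated data. Genes, lists and words were chosen with earlier results of these data known. The named genes were all 10 members, listed myeloid genes past the threshold, the 3 most similar profiles per member and Adar; the cell type markers named beside Lyz2 were chosen after their values were seen. Alternatives were quantile normalization, a pseudocount of 32, a filter on probe sets above background on at least 2 arrays, an eBayes trend, array weights, 1 mean value per gene, the arrays of the groups compared alone, and each array left out.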

Additional observations from a re-analysis of the deposited data

Results flagged for a closer look

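Among the 5 control arrays, wild-type array 2 stood apart from the other 4 for Cebpa (5.07, with the nearest other array at 3.14 log2 units). The same array stood apart for Ms4a3 (3.18, with the nearest other at 2.60). The gap took up 0.745 and 0.731 of the range. Chance gives such a gap in about 1 of 20 groups, and 9 genes were examined. The 5 control arrays combine heterozygous and wild-type mice. Groups of 3 and 2 arrays were not examined in this way.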

How the results depend on the processing

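Of 3 genes past the threshold against all controls, 2 passed with quantile normalization and with a pseudocount of 32 (Plac8 and Spi1), 1 with an eBayes trend (Plac8), 0 with array weights and 0 to 2 on leaving out each array. Against wild type the count of 1 became 0 with the pseudocount and with the arrays of the 2 groups alone, 2 with 1 mean value per gene (Lyz2 added), and 1 to 2 on leaving out each array. Against heterozygous the count of 2 became 1 with the pseudocount, the trend, array weights or the arrays of the 2 groups alone, 3 with 1 mean value per gene (Lyz2 added), and 0 to 1 on leaving out each array. In heterozygous minus wild type it stayed 0 throughout. The cause was not tested. No direction of Plac8, Spi1 or Lyz2 changed in the alternatives run. On leaving out each array the sign turned for Cebpa in null minus wild type (-2.39 to 0.19) and heterozygous minus wild type (-2.13 to 0.46), for Ms4a3 in heterozygous minus wild type (-0.59 to 0.20), each without wild-type array 2, and for Mpo in that comparison (-0.27 to 0.48) without heterozygous array 1. The pseudocount shrank differences of dim genes: Plac8 to 2.62 against all controls (4.08 without it), 2.94 against wild type (5.11) and 0.53 in heterozygous minus wild type (1.70), Spi1 to 0.68 against all controls (1.60) and 0.74 against heterozygous (1.81), and Lyz2 to -1.66 against all controls (-2.54). Over all probe sets, the 147 calls against wild type became 62 with the pseudocount, 95 with the trend, 90 with array weights and 4 with the arrays of the 2 groups alone, and the 226 against heterozygous became 126 with the pseudocount and 140 with the trend. On leaving out each array the counts were 156 to 792 against all controls (262 with all arrays), 65 to 340 against wild type and 63 to 581 against heterozygous. The 1 call in heterozygous minus wild type became 5 with the pseudocount, 0 with the trend, with 1 mean value per gene and with the arrays of the 2 groups alone, and 0 to 164 on leaving out each array. No paired analysis was possible because the replicate numbers are the order of deposit. Signal near background limits what can be said of Elane, Ctsg, Ms4a3 and Cebpa.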
